A study of Canis lupus with 20 samples.

Results

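The voltage-gated and potassium channel genes examined here are the subunits of voltage-gated potassium, sodium and calcium channels, of inward rectifier, two-pore-domain and calcium- or sodium-activated potassium channels, and of HCN pacemaker channels. A gene was taken when a probe set of the canine array carried it as its only symbol and the symbol began with KCN or CACN or named an SCN subunit or an HCN channel. This gave 113 genes of the 15115 that have such a probe set, and each was represented by the probe set with the highest mean over the 20 arrays. The groups were left atrium of uninephrectomized dogs, left atrium of sham-operated dogs, left ventricle of uninephrectomized dogs and left ventricle of sham-operated dogs, with 5 Affymetrix arrays each and 1 array per tissue sample. The dogs were normal animals, uninephrectomy removed the right kidney, and hearts were taken 12 weeks after surgery; age is not given in the labels. The design assigned 6 dogs to each operation, and 5 samples per chamber and operation were put on arrays.

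Voltage-gated sodium and calcium channels carry the inward currents that start and hold the cardiac action potential, and potassium channels carry the outward currents that end it and set the resting potential. The pore-forming subunits determine which ion passes, and accessory subunits change how many channels reach the membrane and how they gate. Atrial and ventricular myocytes are known to use different potassium channels, among them the acetylcholine-activated inward rectifier and the ultrarapid Kv1.5 current of the atrium. The comparisons ask how the channel genes responded to loss of a kidney in each chamber and how atrium and ventricle differ.

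Signals are given on the log2 scale as deposited, and levels are compared only within a probe set. Array medians lay between 2.33 and 2.39. The chamber labels fitted the marker genes: the atrial light chain MYL7 was 14.17 to 14.33 in uninephrectomized atria and 14.20 to 14.48 in sham atria, against 11.55 to 12.01 and 11.79 to 12.73 in the ventricles of the same groups. The ventricular light chain MYL2 was 3.37 to 7.40 and 2.70 to 5.53 in the atria, against 14.49 to 14.69 and 14.27 to 15.02 in the ventricles, with the highest atrial value in uninephrectomized atrial array 4. Connective tissue markers also differed: of 7 fibroblast markers, 6 were called higher in atrium than ventricle in uninephrectomized dogs and 5 in sham dogs. The mean fibroblast marker signal per atrial array was 9.94 to 10.71 in uninephrectomized and 9.17 to 10.40 in sham dogs, against 8.38 to 9.02 and 8.41 to 8.92 in the ventricles. Of 6 smooth muscle and pericyte markers 4 were called higher and 1 lower in uninephrectomized atria and 3 higher in sham atria, and of 7 cardiomyocyte markers 4 were called lower in the atria of either group. In such tissue samples fewer cells of a type and less RNA per cell cannot be told apart, and the part of the tissue mixture in the results below was not tested.

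Most channel genes gave low signals. Of the 113 genes, 62 passed the filter on low values (a mean log2 signal over all arrays of at least 1.87) and were tested, and 51 were not. KCNJ1 lay just under the filter with a mean of 1.87 and HCN2 just over it, at 1.87 as well after rounding. The tested genes were 19 of 30 voltage-gated potassium (Kv) pore subunits, 8 of 12 inward rectifiers (Kir), 3 of 13 two-pore-domain (K2P) subunits, 2 of 8 calcium- or sodium-activated potassium channels and 6 of 16 potassium channel accessory subunits. They further held 6 of 7 sodium channel (Nav) alpha and 2 of 2 beta subunits, 8 of 9 calcium channel (Cav) alpha-1, 2 of 3 alpha-2-delta, 2 of 3 beta and 2 of 7 gamma subunits, and 2 of 3 HCN channels. Of the 62 tested genes, 34 stayed under log2 3 in every array, a level where signals crowd at the low end and differences are compressed, and 28 reached 3 in at least 1 array.

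**Figure D1:**
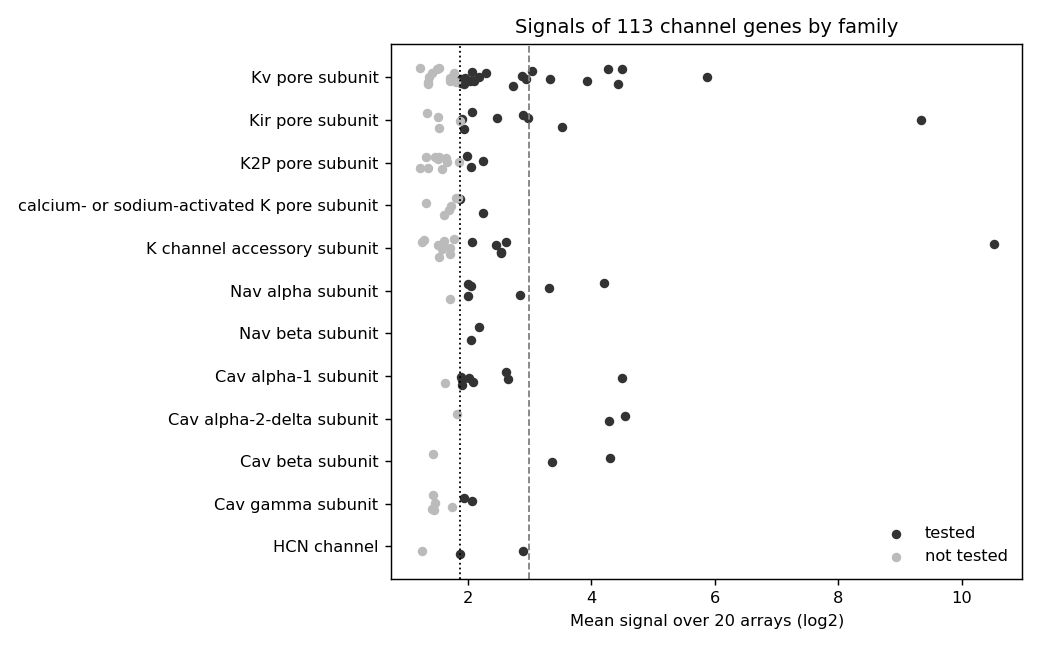
Mean log2 signal over 20 arrays (horizontal axis) of the 113 channel genes, 1 point per gene, by family (vertical axis). The dotted line marks the filter at 1.87 and the dashed line log2 3. Most means lie below 3, including every one of the two-pore-domain, calcium- or sodium-activated, Nav beta, Cav gamma and HCN families.

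Several channels central to cardiac electrophysiology could therefore not be read from these arrays. KCNJ2 (the Kir2.1 inward rectifier), KCNN2 and KCNN3 (small-conductance calcium-activated channels), CACNA2D1, CACNA1D and HCN4 lay below the filter. CACNA2D2, KCNE1 and KCNK3 had no probe set with a single symbol in the annotation used and were not analysed here. The L-type calcium channel pore CACNA1C, the T-type pores CACNA1G and CACNA1H, HCN2, KCND2, KCNQ1, KCNJ5, KCNJ11 and KCNK1 were tested, but their signals ran only from 1.70 to 2.68 over all arrays. A difference that was not called for these genes says little about their transcripts.

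Atrium and ventricle differed in 17 channel genes in uninephrectomized dogs, sham dogs or both. In uninephrectomized dogs 14 of the 62 tested genes were called (limma, Benjamini-Hochberg adjusted p under 0.05 over all 30047 tested probe sets), 10 higher and 4 lower in atrium. That is 22.6% of them, against 29.9% of all 11421 tested genes, 1 probe set each, of which 16.2% were higher and 13.7% lower. In sham dogs 12 were called, 6 higher and 6 lower in atrium, or 19.4%, against 22.8% of all tested genes, 12.0% higher and 10.8% lower. The share of channel genes called was thus no higher than that of genes at large, and their median differences of -0.038 in uninephrectomized and -0.024 in sham dogs stood beside -0.020 and -0.0076 over all tested genes. A few of the differences were large: 5 genes were called at least 1 log2 higher in atrium in either kind of dog, beside 3.93% of all tested genes for uninephrectomized dogs and 2.90% for sham, and 2 were called at least 1 log2 lower in uninephrectomized dogs (1.83% of genes) and 0 in sham dogs (1.35%). The signals of atrium and ventricle did not overlap for 9 genes in uninephrectomized dogs (23.5% of all tested genes) and for 8 in sham dogs (15.8%).

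The 9 genes called in both kinds of dog were KCNA3, KCNJ3, CACNA2D3, SCN11A, KCNIP2 and KCNT2, all higher in atrium, and KCNJ4, KCND3 and KCNE3, all lower in atrium. CACNB3, KCNMB4, KCNN4, KCNS3 and KCNJ8 were called in uninephrectomized dogs alone, and KCNB2, KCNH1 and KCNK1 in sham dogs alone. The difference between the chamber effects of the 2 kinds of dog was tested for all 62 genes and called for none (0% of all tested genes, with 2 channel genes under an unadjusted p of 0.05 against 2.80% of all), so these 8 genes are not shown to differ between the operations.

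**Figure D2:**
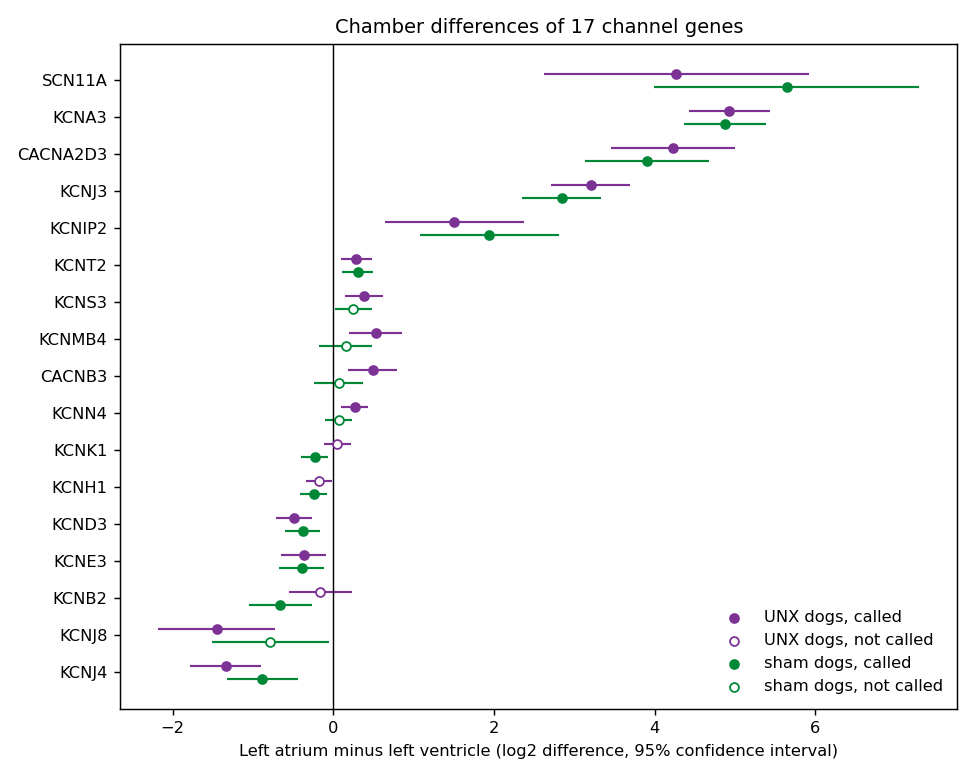
Left atrium minus left ventricle (horizontal axis, log2 difference with 95% confidence interval) for the 17 channel genes called in uninephrectomized (UNX, purple) or sham (green) dogs; filled points were called. SCN11A, KCNA3, CACNA2D3, KCNJ3 and KCNIP2 lie to the right of 1 in both, and KCNJ4 and KCNJ8 reach furthest left.

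Among the inward rectifiers KCNJ3 was higher in atrium and KCNJ4 lower. KCNJ3 encodes Kir3.1, a pore subunit of the channel that vagal acetylcholine opens through G proteins. Its signals were 5.25, 4.95, 6.06, 4.80 and 4.84 in uninephrectomized atria and 1.94, 2.08, 1.87, 1.95 and 2.04 in uninephrectomized ventricles. They were 5.30, 4.07, 4.98, 5.48 and 4.72 in sham atria and 2.03, 1.85, 2.29, 1.91 and 2.26 in sham ventricles. Every atrial array lay above every ventricular one, and all ventricular arrays were at the low end of the scale. The atrium was higher by 3.21 ± 0.24 log2 (SE, n = 5 per group) in uninephrectomized dogs (adjusted p = 1.27e-08) and by 2.84 ± 0.24 in sham dogs (adjusted p = 7.30e-08). KCNJ5, the partner pore subunit Kir3.4, read 1.78 to 2.13 in uninephrectomized atria and 1.77 to 2.04 in sham ventricles and showed no call.

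KCNJ4 encodes Kir2.3, a strong inward rectifier of the family that sets the resting potential. It read 2.21, 2.44, 1.99, 2.32 and 2.10 in uninephrectomized atria, against 3.33, 3.43, 2.92, 4.08 and 4.01 in uninephrectomized ventricles. In sham dogs it read 2.40, 2.36, 3.00, 2.41 and 2.23 in atria, against 3.51, 3.68, 2.74, 3.60 and 3.30 in ventricles. The groups did not overlap in uninephrectomized dogs; in sham dogs array 3 was the highest atrium and the lowest ventricle, and the other 4 numbers did not overlap. KCNJ4 was lower in atrium by a difference of -1.34 ± 0.21 in uninephrectomized (adjusted p = 1.13e-04) and -0.89 ± 0.21 in sham dogs (adjusted p = 0.00535). KCNJ12 (Kir2.2) was near log2 3 in all 4 groups, with means of 2.96 ± 0.16 and 2.98 ± 0.14 in uninephrectomized and sham atria and 2.92 ± 0.12 and 3.03 ± 0.09 in the ventricles (SD, n = 5), and was not called.

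KCNJ8 and ABCC9 make up an ATP-sensitive potassium channel: KCNJ8 encodes its pore, Kir6.1, and ABCC9 its sulfonylurea receptor, SUR2. KCNJ8 read 8.15, 7.77, 9.67, 7.31 and 9.23 in uninephrectomized atria, against 10.09, 9.68, 9.66, 10.22 and 9.75 in uninephrectomized ventricles. It read 8.37, 9.18, 8.87, 9.78 and 9.43 in sham atria, against 9.98, 10.19, 9.68, 9.95 and 9.75 in sham ventricles. The atria were lower and spread more widely, with a slight overlap in each kind of dog. The difference was -1.45 ± 0.35 in uninephrectomized dogs (adjusted p = 0.00402) and -0.78 ± 0.35 in sham dogs (adjusted p = 0.120), where all 5 same-numbered pairs were lower in atrium. All 3 KCNJ8 probe sets were lower in atrium in either kind of dog. Without uninephrectomized atrial arrays 2 and 4, which were the lowest for KCNJ8 and the highest for the mean fibroblast marker signal in that group, the uninephrectomized difference was -0.86 with an adjusted p of 0.0545 and the call was lost, while the sham difference stayed at -0.78 and was called (adjusted p = 0.0419). Uninephrectomized atrial arrays 2 and 4 were chosen after seeing the data, and leaving out the lowest atria had to shrink the uninephrectomized difference. In sham atria, arrays 1 and 3 were instead the lowest for both KCNJ8 and that marker mean. How KCNJ8 and the marker mean relate was not tested.

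ABCC9 showed a chamber difference of the same direction, -0.76 ± 0.24 in uninephrectomized dogs (adjusted p = 0.0261) and -0.66 ± 0.24 in sham dogs (adjusted p = 0.0620). RGS5, a pericyte marker, was likewise lower in atrium by a difference of -0.75 ± 0.16 in uninephrectomized dogs (adjusted p = 0.00180) and differed by -0.39 ± 0.16 in sham dogs without a call (adjusted p = 0.0947), and its part in the KCNJ8 and ABCC9 values was not tested. Of the 6 smooth muscle and pericyte markers, 5 went the other way in both kinds of dog. Among them PDGFRB averaged 4.39 and 4.42 in uninephrectomized and sham atria, against 4.10 and 4.18 in the ventricles. KCNJ8 and ABCC9 are neighbours in the RefSeq annotation of the wolf assembly mCanLup2. ABCC9 read 7.47, 7.32, 8.48, 6.92 and 8.15 in the 5 uninephrectomized atria, the same order of arrays as KCNJ8, with array 4 lowest and array 3 highest. KCNIP2 had that order in uninephrectomized atria too, but not in the other 3 groups, and ABCC9 shared the order of KCNJ8 in sham ventricles but not in sham atria or uninephrectomized ventricles. ABCC8, which encodes SUR1, another sulfonylurea receptor of ATP-sensitive channels, was higher in atrium, with 5.84, 4.48, 6.24, 4.14 and 5.61 in uninephrectomized atria against 2.78, 3.71, 2.70, 3.38 and 3.04 in their ventricles. The groups did not overlap, and the difference was 2.14 ± 0.34 in uninephrectomized (adjusted p = 1.25e-04) and 1.94 ± 0.34 in sham dogs (adjusted p = 4.53e-04). KCNJ11, which encodes the pore Kir6.2 and neighbours ABCC8, stayed under log2 3 in every array, with a difference of -0.19 ± 0.07 in uninephrectomized dogs that was not called (adjusted p = 0.0611).

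**Figure D3:**
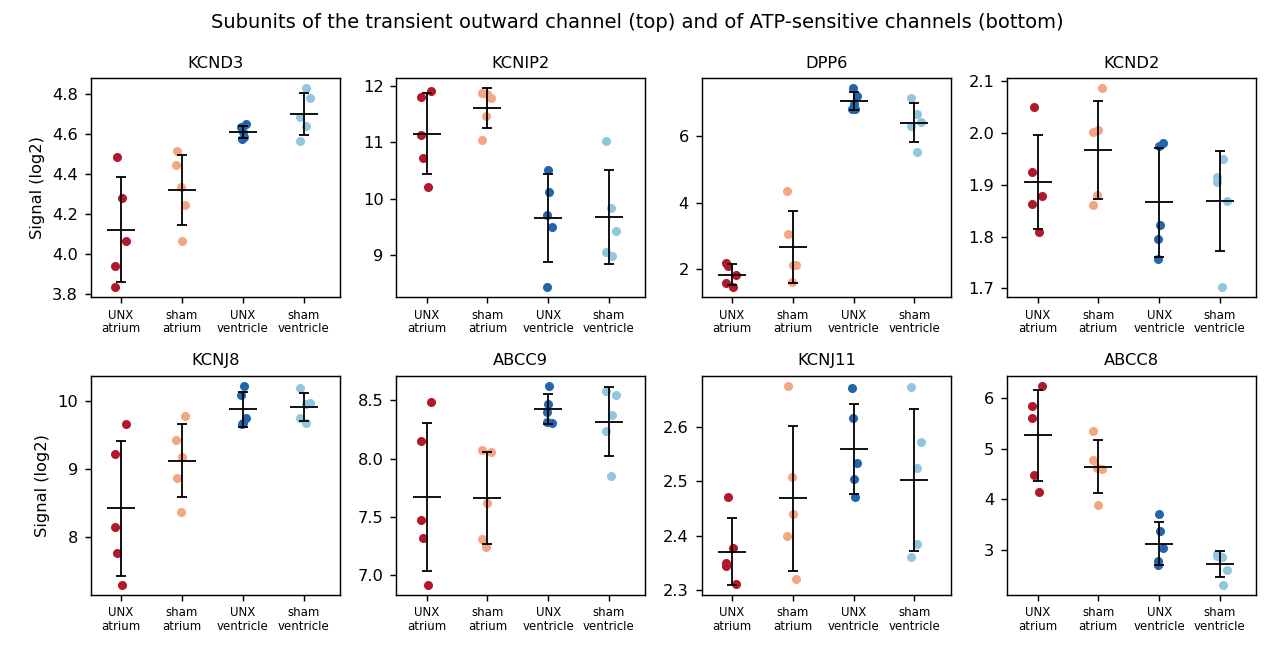
Log2 signal of each array (vertical axis, scales differ) in the 4 groups, with mean and SD bars, for the transient outward channel subunits KCND3, KCNIP2, DPP6 and KCND2 (top) and the ATP-sensitive channel subunits KCNJ8, ABCC9, KCNJ11 and ABCC8 (bottom). KCNIP2 and ABCC8 are higher in atrium, and KCND3, DPP6, KCNJ8 and ABCC9 higher in ventricle.

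The Kv subunits gave the largest atrial difference of any potassium channel gene here. KCNA3 encodes Kv1.3, best known as the voltage-gated potassium channel of T lymphocytes. It read 8.18, 7.62, 8.95, 8.16 and 8.67 in uninephrectomized atria, against 3.84, 3.00, 3.29, 3.46 and 3.34 in their ventricles. Sham atria had 8.60, 8.56, 7.69, 8.31 and 8.61, against 3.14, 3.06, 3.48, 4.03 and 3.67 in sham ventricles. All 10 atria stood far above all 10 ventricles. The differences were 4.93 ± 0.24 in uninephrectomized (adjusted p = 3.70e-11) and 4.88 ± 0.24 in sham dogs (adjusted p = 4.99e-11). Of the 8 lymphocyte markers looked at beside it, 4 were tested and 0 of these were called between chambers. Of the 4, PTPRC, CD8A and MS4A1 stayed under log2 3 in every array, and CD3E, CD3D, LCK and CD79A lay below the filter. CD2, a surface protein of T cells, averaged 4.51 ± 1.93 in uninephrectomized atria and 5.30 ± 1.97 in sham atria, against 3.64 ± 0.98 and 4.27 ± 1.25 in the ventricles of the same groups (SD, n = 5), with overlap and no call. The part of lymphocytes in the KCNA3 difference was not tested. The lymphocyte list was added after the KCNA3 values were seen. KCNA3 rests on 1 probe set, and its neighbour KCNA2, another Kv1 subunit, was not called on its brightest probe set (-0.22 ± 0.08 and -0.028 ± 0.082 in uninephrectomized and sham dogs), although a dimmer KCNA2 probe set was called higher in atrium by 0.65 ± 0.15 and 0.64 ± 0.15 in uninephrectomized and sham dogs.

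KCNA5 encodes Kv1.5, the channel of the ultrarapid atrial current. It read 4.00, 4.39, 3.55, 6.27 and 4.35 in uninephrectomized atria, against 3.85, 3.35, 3.63, 3.29 and 4.14 in their ventricles, and 4.11, 3.92, 4.81, 4.48 and 3.82 in sham atria, against 3.50, 3.23, 4.00, 2.99 and 2.88 in sham ventricles. Atrial arrays tended to be higher but overlapped the ventricles in both kinds of dog. The differences of 0.86 ± 0.37 and 0.91 ± 0.37 were not called (adjusted p = 0.0934 and 0.0919 in uninephrectomized and sham dogs).

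The subunits of the fast transient outward current differed between chambers in opposite directions. KCND3 encodes its pore Kv4.3, and KCNIP2 encodes KChIP2, the calcium-binding subunit that raises its surface expression. KCND3 read 3.83, 4.49, 4.06, 4.28 and 3.94 in uninephrectomized atria, against 4.64, 4.61, 4.58, 4.59 and 4.65 in their ventricles. Sham atria had 4.33, 4.07, 4.52, 4.24 and 4.44, against 4.78, 4.69, 4.83, 4.64 and 4.57 in sham ventricles. The chambers did not overlap in either kind of dog, by a small margin in both. The differences were -0.49 ± 0.11 (adjusted p = 0.00177) and -0.38 ± 0.11 (adjusted p = 0.0140), and the second brightest KCND3 probe set was called in the same direction in both.

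KCNIP2 read 11.13, 10.73, 11.92, 10.21 and 11.80 in uninephrectomized atria, against 8.43, 10.50, 9.71, 10.11 and 9.50 in their ventricles. Sham atria had 11.47, 11.87, 11.05, 11.78 and 11.87, against 9.42, 11.03, 9.84, 8.98 and 9.06 in sham ventricles. The ventricles spread widely; the chambers overlapped slightly in uninephrectomized dogs and met without overlap in sham dogs. The differences were 1.51 ± 0.41 (adjusted p = 0.0103) and 1.94 ± 0.41 (adjusted p = 0.00216), with all 3 probe sets higher in atrium. DPP6, a dipeptidyl-peptidase-like accessory protein of Kv4 channels, showed the opposite order. It read 1.58, 2.09, 1.84, 1.47 and 2.19 in uninephrectomized atria against 6.82, 6.95, 7.43, 6.83 and 7.22 in their ventricles, a difference of -5.22 ± 0.38 (adjusted p = 1.36e-08). In sham dogs it read 1.61, 2.13, 3.05, 2.14 and 4.36 in atria against 6.41, 6.32, 5.51, 6.65 and 7.15 in ventricles, a difference of -3.75 ± 0.38 (adjusted p = 1.16e-06). The uninephrectomized atria were all at the low end, and sham atria 3 and 5 stood above it.

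**Figure D4:**
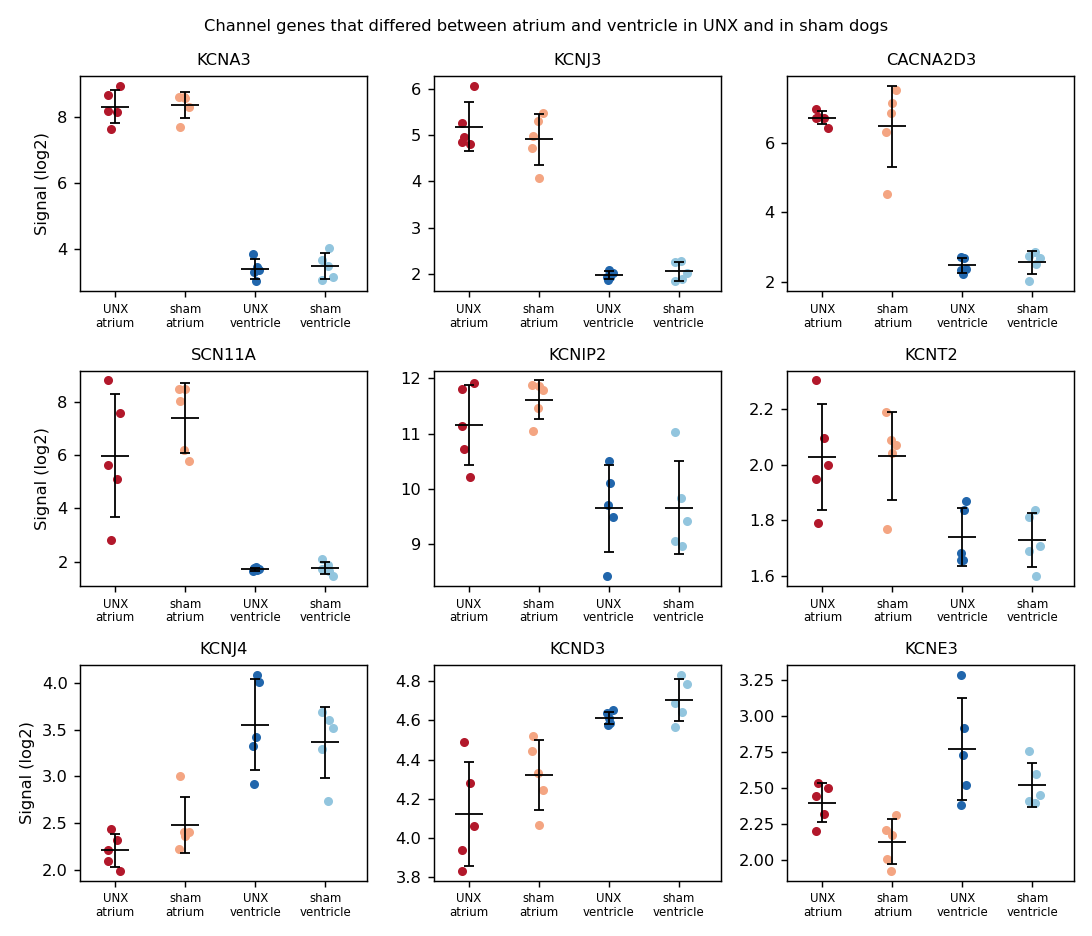
Log2 signal of each array (vertical axis, scales differ) in the 4 groups, with mean and SD bars, for the 9 channel genes called between chambers in both uninephrectomized (UNX) and sham dogs. The top row and the first panel of the middle row show all ventricles below all atria, and SCN11A spreads most in the atria.

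The remaining Kv and accessory genes differed by less than 1 log2. KCNB2 (Kv2.2) was lower in atrium in sham dogs, -0.66 ± 0.19 (adjusted p = 0.0170), and differed by -0.16 ± 0.19 in uninephrectomized dogs without a call. Its second probe set had the same sign in sham dogs but was not called. The sham call was lost in 2 of the 12 alternatives other than leaving out 1 array. Over those 12 the sham difference ran from -0.78 to -0.039. KCNH1, an ether-a-go-go channel, was lower in sham atrium by a difference of -0.24 ± 0.08 (adjusted p = 0.0327), a call that was lost without sham atrial array 2, 3, 4 or 5 or sham ventricular array 1 or 3, with values of -0.25 to -0.17. KCNS3, a silent subunit that modifies Kv2 channels, was higher in uninephrectomized atrium by 0.38 ± 0.11 (adjusted p = 0.0149). KCNE3, a single-span accessory subunit, was lower in atrium by differences of -0.37 ± 0.13 and -0.39 ± 0.13 (adjusted p = 0.0462 and 0.0419 in uninephrectomized and sham dogs), and leaving out 1 array at a time ended the call for 13 of the 20 arrays in uninephrectomized dogs and for 7 in sham dogs. KCNMB4, a beta subunit of the large-conductance calcium-activated channel, was higher in uninephrectomized atrium by 0.52 ± 0.16 (adjusted p = 0.0183), but its call was lost without atrial array 2 (0.43) or 4 (0.46). KCNH2, which encodes the pore of the rapid delayed rectifier, read 4.05 to 4.61 and 4.33 to 4.73 in uninephrectomized and sham atria and 4.44 to 5.25 and 4.14 to 4.73 in the ventricles, with no call. KCNQ1, the pore of the slow delayed rectifier, stayed between 1.87 and 2.17.

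Among the calcium- or sodium-activated and two-pore-domain channels the called differences were small and every tested gene stayed under log2 3. KCNT2, a sodium-activated channel, was higher in atrium by 0.29 ± 0.09 and 0.30 ± 0.09 (adjusted p = 0.0253 and 0.0233 in uninephrectomized and sham dogs). KCNT2 passed the filter only through the atria, with means of 2.03 in the atria of both kinds of dog against 1.74 and 1.73 in the ventricles of uninephrectomized and sham dogs. Its call was lost in uninephrectomized dogs without atrial array 4 or 5 or ventricular array 1, 2 or 3 (0.22 to 0.27), and in sham dogs without atrial array 5 (0.26) or ventricular array 4 (0.27). KCNN4, the intermediate-conductance calcium-activated channel, was higher in uninephrectomized atrium by 0.27 ± 0.08 (adjusted p = 0.0179), and lost its call without atrial array 4 (0.20). KCNK1, which encodes TWIK-1, was lower in sham atrium by a difference of -0.23 ± 0.08 (adjusted p = 0.0487), and with same-numbered sham arrays as pairs that call was lost (adjusted p = 0.0789). Leaving out 1 array at a time ended it for 15 of the 20 arrays, with values of -0.25 to -0.18 among those. A second KCNK1 probe set, at 1.52 to 2.77 over all arrays, was called in the same direction in sham dogs.

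The sodium channel alpha subunit with a chamber difference was SCN11A, which encodes Nav1.9, known from sensory neurons. It read 5.63, 2.80, 7.59, 5.10 and 8.81 in uninephrectomized atria, against 1.66, 1.78, 1.74, 1.67 and 1.72 in their ventricles. Sham atria had 6.21, 8.50, 8.02, 5.78 and 8.50, against 1.46, 1.72, 1.86, 1.65 and 2.09 in sham ventricles. All atria exceeded all ventricles, and the atria differed among themselves more than those of any other channel gene, with an SD of 2.32 in uninephrectomized and 1.31 in sham dogs. The chamber differences were 4.27 ± 0.79 (adjusted p = 4.83e-04) and 5.65 ± 0.79 (adjusted p = 4.32e-05) on the measured signals. SCN11A passed the filter only through the atria, since its ventricular means of 1.71 and 1.76 lie under it, and the ventricular signals at the low end leave the size of the difference uncertain. A second SCN11A probe set stayed between 1.47 and 1.81 in every array, so the difference rests on 1 probe set whose gene name comes from the array annotation. Its neighbour SCN10A (Nav1.8) read 3.02 to 4.03 in uninephrectomized and 3.25 to 3.73 in sham atria, against 2.85 to 3.49 and 3.09 to 3.48 in the ventricles, and was not called.

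Of 4 adipocyte markers 1 was called higher in atrium in uninephrectomized dogs (ADIPOQ) and 2 in sham dogs (ADIPOQ and FABP4); LEP and PLIN1 were not called in either, and PLIN1 had differences of -0.092 and -0.059. ADIPOQ, the adipocyte hormone adiponectin, read 6.51, 3.10, 6.60, 5.51 and 5.44 in uninephrectomized atria and 2.44, 7.53, 8.76, 4.93 and 6.54 in sham atria, against 1.81 to 2.40 in all ventricles. Uninephrectomized atrial array 2 was lowest for both ADIPOQ and SCN11A, whereas in sham atria array 1 was lowest for ADIPOQ and array 4 for SCN11A. Of the 3 tested Schwann cell and neuronal markers 1, STMN2, was called higher in atrium in each kind of dog; SOX10 was below the filter. The mean over the 5 genes of that list with a probe set was 3.59 to 4.11 and 2.84 to 4.83 in uninephrectomized and sham atria, against 3.05 to 3.20 and 2.30 to 3.20 in ventricles. Their part in the SCN11A difference was not tested.

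Some partners of the channels differed between chambers as well. FGF13, an intracellular fibroblast growth factor homologue that binds sodium channels, read 4.14, 5.26, 5.10, 5.28 and 4.88 in uninephrectomized atria against 9.95, 9.73, 9.90, 9.20 and 10.21 in their ventricles. Sham atria had 3.96, 5.15, 5.17, 6.89 and 5.62, against 9.998, 8.97, 10.13, 9.71 and 9.95 in sham ventricles. No atrium reached any ventricle. The differences were -4.86 ± 0.38 (adjusted p = 3.07e-08) and -4.39 ± 0.38 (adjusted p = 1.55e-07). GPD1L, a dehydrogenase-like protein that affects the cardiac sodium current, was lower in atrium by differences of -2.52 ± 0.31 and -2.30 ± 0.31, and NEDD4L, a ubiquitin ligase of sodium channels, was higher by 1.11 ± 0.24 and 1.42 ± 0.24 in uninephrectomized and sham dogs. Of a list of 24 channel partner genes, 19 were tested, of which 6 were called higher and 5 lower in uninephrectomized atrium and 5 higher and 4 lower in sham atrium, where 29.9% and 22.8% of all tested genes were called in either direction. The related FGF12 and FGF14 and the caveolin CAV3 were not called in either kind of dog. The median difference of the tested partners was 0.074 in uninephrectomized and 0.16 in sham dogs.

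Among the calcium channels the auxiliary subunit CACNA2D3 stood out. The alpha-2-delta proteins bring calcium channels to the membrane. CACNA2D3 read 6.95, 6.74, 6.43, 6.70 and 6.70 in uninephrectomized atria, against 2.72, 2.23, 2.35, 2.69 and 2.39 in their ventricles. Sham atria had 6.86, 7.13, 4.53, 7.51 and 6.30, against 2.68, 2.02, 2.88, 2.52 and 2.74 in sham ventricles. All atria exceeded all ventricles, and sham atrial array 3 was the lowest atrium. The differences were 4.23 ± 0.37 (adjusted p = 1.25e-07) and 3.90 ± 0.37 (adjusted p = 4.24e-07). The other 2 CACNA2D3 probe sets were higher in atrium as well but by much less; the second brightest gave 0.28 ± 0.08 in uninephrectomized dogs and 0.21 ± 0.08 in sham dogs, where it was not called (adjusted p = 0.0567).

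Of the 8 tested alpha-1 pores 0 were called in either kind of dog, and 7 of them stayed under log2 3; CACNA1S, the skeletal muscle pore, read 4.24 to 4.77 over all arrays. CACNA2D4 was not called. CACNB3, a cytoplasmic beta subunit, was higher in uninephrectomized atrium by 0.49 ± 0.14 (adjusted p = 0.0162); its second probe set had the opposite sign, -0.14 ± 0.08, and the call was lost without atrial array 2 (0.41). CACNB2, the main cardiac beta subunit, differed by 0.21 ± 0.12 and 0.09 ± 0.12 and was not called. The 2 tested gamma subunits and the pacemaker channels HCN2 and HCN3 were not called in either kind of dog.

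No channel gene was called for uninephrectomy. In atrium and in ventricle 0 of 62 genes passed an adjusted p under 0.05 by limma, as did 0% of all tested genes in both. At an unadjusted p under 0.05 there was 1 channel gene in atrium (6.61% of all tested genes) and 4 in ventricle (6.23%). The groups did not overlap for 0 channel genes in atrium (0.928% of all tested genes) and for 2 in ventricle (0.911%). The median difference over the channel genes was -0.022 in atrium and -0.015 in ventricle, beside -0.0051 and -0.0070 over all tested genes. With a median standard error of 0.11 over all probe sets, small differences could not be called with 5 arrays per group. The 95% confidence interval of the surgery difference lay within 1 log2 of 0 for 57 of the 62 genes in atrium and 60 in ventricle. Among the 28 genes that reached log2 3 these were 23 and 26.

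**Figure D5:**
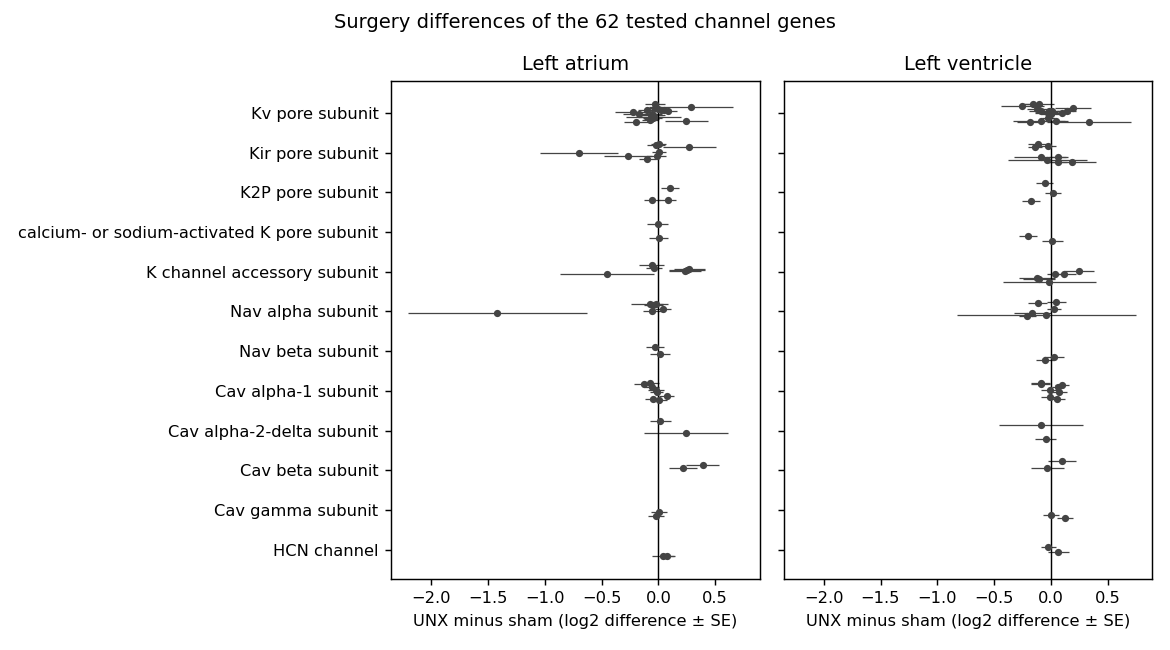
Uninephrectomized minus sham (horizontal axes, log2 difference ± SE) of the 62 tested channel genes by family (vertical axis), in left atrium (left) and left ventricle (right). The points cluster at 0; SCN11A in atrium, at -1.42, has the widest spread.

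In the atrium the calcium channel beta subunit CACNB3 had the smallest p. It read 4.57, 4.97, 4.28, 4.71 and 4.69 in uninephrectomized atria, against 4.23, 4.06, 4.40, 4.39 and 4.18 in sham atria. Of the uninephrectomized arrays 4 lay above every sham array and array 3 lay among them. The difference was 0.39 ± 0.14 (adjusted p = 0.679), and the second CACNB3 probe set gave -0.070 ± 0.08. KCNE3 differed by 0.27 ± 0.13 and CACNB2 by 0.22 ± 0.12, with adjusted p of 0.756 and 0.777. On the negative side KCNJ8 differed by -0.70 ± 0.35 (adjusted p = 0.764; -0.11 without uninephrectomized atrial arrays 2 and 4), KCND3 by -0.20 ± 0.11 (adjusted p = 0.771) and SCN11A by -1.42 ± 0.79 (adjusted p = 0.775). Without uninephrectomized atrial array 2 the SCN11A difference was -0.62, and without arrays 2 and 4 it was -0.061. Arrays 2 and 4 were the 2 lowest of that group for SCN11A and for KCNJ8 and were chosen after seeing the data. Leaving them out therefore had to make both surgery differences less negative, and no conclusion is drawn from it. For SCN11A the 95% confidence interval ran from -3.07 to 0.23, the widest of the channel genes. KCNA3 and KCNJ3, the clearest atrial genes, differed by -0.040 ± 0.24 and 0.27 ± 0.24 between the operations. Of the 7 fibroblast markers 0 were called for surgery in atrium, though all 7 differences were positive with a median of 0.41, and their part in the channel values was not tested.

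In the ventricle SCN3A and CACNG3 were the genes whose groups did not overlap. SCN3A, a neuronal sodium channel pore (Nav1.3), read 1.84, 1.82, 2.03, 1.99 and 2.03 in uninephrectomized ventricles, against 2.22, 2.06, 2.16, 2.07 and 2.24 in sham ventricles. The difference of -0.21 ± 0.07 (adjusted p = 0.627) lies among signals at the low end. CACNG3, a calcium channel gamma subunit known from neurons, read 2.30, 2.14, 2.11, 2.10 and 2.20 in uninephrectomized ventricles, against 1.94, 2.09, 2.08, 2.06 and 2.07 in sham ventricles, a difference of 0.12 ± 0.07 (adjusted p = 0.758). The others with the smallest p were KCNE3 at 0.25 ± 0.13 and KCNA2 at 0.14 ± 0.08 on the positive side, and KCNN4 at -0.20 ± 0.08 and KCNJ14 at -0.14 ± 0.06 on the negative side, none of them called. An RNA quality measure also differed: the mean log2 gap between 3' and more 5' control probe sets of actin, GAPDH and EF1A was 1.14 ± 0.15 in uninephrectomized and 1.42 ± 0.27 in sham ventricles, and 1.10 ± 0.26 and 1.19 ± 0.19 in the atria. With that gap as a covariate there were still 0 calls for surgery in either chamber.

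The response to surgery was also compared between chambers. KCNK1, SCN3A and CACNB3 had the smallest p on the positive side, with differences of 0.28 ± 0.11, 0.24 ± 0.10 and 0.42 ± 0.20 between the atrial and the ventricular effect. KCNH2, KCNA2 and KCNJ4 had the smallest on the negative side, at -0.42 ± 0.22, -0.19 ± 0.12 and -0.46 ± 0.30. All 6 had an adjusted p of 1.00.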

How the data were processed

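Total RNA of 20 dog heart samples was measured on Affymetrix canine arrays, per the labels' protocols after Trizol extraction and amplification with the IVT Express kit. The deposited table holds log2 values and was used as it is; the authors' summarization and normalization are not given in the sources used here. It has 0 columns outside these samples. Gene symbols came from GEO's platform annotation, which can be old. Leaving out 111 control probe sets and the dimmest 30% of the others by overall mean kept 30047 of 43035. These were fitted in R 4.3.3 by limma 3.58.1, using lmFit and eBayes with two-sided tests, 1 mean for each group over 20 arrays and 16 residual degrees of freedom, with Benjamini-Hochberg adjustment and a call under 0.05. The number of arrays limits the precision. The labels state no technical replicates, and p-values measure the spread between these samples.

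Genes named are the called genes of each chamber contrast (at most the 15 largest), for each surgery contrast the 3 smallest p-values per direction, a fixed list of cardiac channels, and partner genes called in both chamber contrasts by at least 1 log2. ABCC9, the other genes set beside a member and the second probe sets were chosen after their values were seen. The members and lists were chosen with earlier results of these data known. Neighbouring genes came from the RefSeq table, which held 110 of the 113 symbols.

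Equal replicate numbers were checked for pairing from deviations from group means. Sham atria and ventricles of equal number correlated by 0.209 to 0.463, each array best with its own number, so they were taken as pairs, from the data and not the labels. The main fit did not use these pairs, which entered only the block alternatives and the comparison of same-numbered pairs. Uninephrectomized ones of equal number correlated by -0.235 to 0.115 and were not. Each uninephrectomized atrium correlated best with a ventricle of another number. Atria 1 to 5 did so with ventricles 3, 4, 1, 5 and 2, by 0.437, 0.323, 0.167, 0.536 and 0.298. Whether those come from the same dogs is not in the labels, and they were not fitted as pairs. The blocks joined equal numbers in both kinds of dog, so the uninephrectomized blocks may join different dogs. Alternatives were other filters, normalizations, array weights, blocks, the 3' gap as covariate, other probe sets per gene and leaving out each array.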

Additional observations from a re-analysis of the deposited data

Results flagged for a closer look

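Among 23 named genes in 4 groups (92 sets of 5 arrays), 7 sets held an array far from the others by Dixon's criterion, and chance flags about 1 in 20 groups, or 4.6 here. KCNJ4 in sham atrial array 3 read 3.00, above the other sham atria at 2.23 to 2.41. KCNB2 in uninephrectomized atrial array 2 read 3.75, below the others at 4.25 to 4.35. KCNH1 read 2.48 in uninephrectomized atrial array 5, below 2.76 to 2.83 in the others, and 3.37 in sham ventricular array 1, above 2.95 to 3.07. KCNK1 read 1.74 in sham atrial array 5, below 1.98 to 2.05, and 1.97 in sham ventricular array 3, below 2.19 to 2.28. CACNG3 read 1.94 in sham ventricular array 1, below 2.06 to 2.09.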

How the results depend on the processing

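The surgery contrasts gave 0 called channel genes under every alternative run. Channel genes called between chambers numbered 10 to 15 in uninephrectomized dogs (7 to 12 higher, 3 to 5 lower) and 8 to 13 in sham dogs (5 to 7 higher, 3 to 7 lower) when each array was left out; the lowest sham count of genes lower in atrium, 3 against 6, came without sham atrial array 5 or sham ventricular array 1. Leaving out uninephrectomized atrial arrays 2 and 4 together, chosen after seeing the data, gave 11 and 13. With the replicate block, which joins arrays of equal number in both kinds of dog, the counts were 14 and 11, and KCNK1 in sham dogs alone lost its call. The second brightest probe set of each gene that has one, which covers fewer genes, gave 7 in uninephrectomized dogs (3 higher) and 5 in sham dogs (3 higher, 2 lower), and the mean of all probe sets of a gene gave 7 lower in uninephrectomized dogs. KCNA3, KCNJ3, SCN11A, KCNIP2, KCNJ4 and KCND3 kept their calls in both kinds of dog under every alternative that could be run for them. KCNA3, KCNJ3 and KCNJ4 have 1 probe set. The second SCN11A probe set, at 1.47 to 1.81 in every array, lay below the filter and was not tested.

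No called value reversed on its own probe set. With the second brightest probe set the sign turned for CACNB2 (-0.039) and CACNB3 (-0.070) after surgery in atrium, KCNA2 (-0.0055) after surgery in ventricle, CACNB3 (-0.17) and KCNA2 (0.013) in the difference of the surgery effects, and CACNB3 (-0.14) and KCNK1 (-0.42) between chambers in uninephrectomized dogs. KCNK1 also turned there with the mean of all probe sets (-0.19) and without atrial arrays 2 and 4 (-0.0030), and CACNB3 in sham dogs with quantile normalization (-0.058) and without sham ventricular array 1, at the low end of a leave-one-out range of -0.023 to 0.15. The cause was not tested. Signals near the low end limit what can be read for most of the channel genes.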
